A study of Drosophila melanogaster with 6 samples.

Results

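Sites of Argonaute 2 (AGO2) that were drawn as a single peak in the S3 line and a single peak in the S2 line are described here. A pair was formed where an S3 peak and an S2 peak shared at least 1 bp, the S3 peak met no other S2 peak, and the S2 peak met no other S3 peak. This gave 1490 pairs, which took in 1490 of 3159 S3 peaks and 1490 of 2084 S2 peaks. S3 and S2 are Schneider's lines of Drosophila melanogaster, which were established from embryos. Cells of both lines were grown in Shield and Sang's M3 medium with serum, and the labels name no mutation, knockdown or treatment. Chromatin immunoprecipitation and sequencing (ChIP-seq) with the monoclonal anti-AGO2 antibody 9D6 gave 1 library of S3 cells and 1 library of S2 cells. The ChIP of S2 cells with the polyclonal antibody and the input libraries of both lines were not analysed here.

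AGO2 is the Argonaute of the small interfering RNA pathway, in which it carries a short guide RNA and cleaves RNAs that pair with it. The title of the series concerns a function of AGO2 apart from RNA interference, at insulators of the CTCF/CP190 kind. Insulators are DNA elements that limit contacts between enhancers and promoters or between neighbouring chromatin domains, and in Drosophila CTCF is a DNA-binding insulator protein to which CP190 is recruited as a partner. The series sets S3 cells beside S2 cells.

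With 1 library a line, values have no replicate error and the lines were not tested against each other. The read depth of the libraries is not given in the sources used here. The pairs were chosen by position, and their positions and widths are given as a description. Intervals are at 95%; they are exact binomial for shares and from binomial ranks for medians. They treat pairs as the unit, cover neither variation between libraries nor the nearness of neighbouring pairs, and are no test of a difference. Some counts are set beside a background, the share over all overlapping combinations of an S3 and an S2 peak. For the other counts of widths, borders and forms this share was not computed, so they are not shown to be particular to the pairs. Positions are on build dm3, counted from 1. Genes and sequences at the pairs are not given, since no genome or annotation of that build was used here.

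Paired peaks made up 47.2% of S3 peaks (45.4 to 48.9%) and 71.5% of S2 peaks (69.5 to 73.4%). Of the remaining peaks, 262 in S3 and 296 in S2 belonged to sites where a peak met several partners, and 1407 in S3 and 298 in S2 had no partner. Paired peaks covered 2.72 Mb in S3, or 49.97% of the S3 peak length, and 2.34 Mb in S2, or 72.0% of the S2 peak length. Their shared sequence amounted to 2.04 Mb, which was 75.1% of the paired S3 length and 87.0% of the paired S2 length. In S3 the median width was 1449.5 bp for paired peaks (1399 to 1512), 1594 bp for peaks with several partners and 1222 bp for peaks without a partner. In S2 the corresponding medians were 1237 bp (1193 to 1289), 1070.5 bp and 1069 bp. Peaks with several partners had the highest median of the S3 classes, and paired peaks had the highest of the S2 classes. In each list, however, the intervals of paired peaks and of peaks with several partners overlapped. For peaks with several partners the intervals were 1413 to 1859 bp in S3 and 964 to 1222 bp in S2. For peaks without a partner the S3 interval, 1170 to 1276 bp, lay below those of both other classes. Their S2 interval, 954 to 1172 bp, lay below that of paired peaks only.

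Paired peaks also stood farther from the next peak of their own list than peaks with several partners did. Measured within a list, the distance to the next peak had a median of 3403.5 bp for paired S3 peaks and 7204 bp for paired S2 peaks. For peaks with several partners it was 63.5 bp in S3 and 79 bp in S2, and for peaks without a partner it was 6299 bp in S3 and 15344 bp in S2. The rule itself favours such a difference, because a peak divided into close parts in 1 list meets both parts when the other list leaves it whole.

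Width ratios centred close to 1, with a longer tail on the side of wider S3 peaks. The S3 peaks measured 131 to 11985 bp with quartiles of 938.25 and 2226.75 bp, and the S2 peaks 93 to 15756 bp with quartiles of 818 and 1881.5 bp. The width ratio S3/S2 had a median of 1.06 (1.04 to 1.07), quartiles of 0.961 and 1.41, and limits of 0.14 and 8.5. The widths lay within a factor of 1.1 in 559 pairs (37.5%, 35.1 to 40.0%). The S3 peak was the wider in 984 pairs and the S2 peak in 502, and 4 pairs had equal widths; among all 1876 overlapping combinations of an S3 and an S2 peak, pairs included, the S3 peak was wider in 65.0%. The S3 share of wider peaks among pairs, 66.0% (63.6 to 68.4%), was close to that background, which the pairs themselves largely make up.

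Large differences in width were less frequent among pairs than among all overlapping combinations, as the rule leaves out sites where a wide peak faces several narrow ones. The S3 peak was at least 1.5 times as wide as the S2 peak in 325 pairs (21.8%), against a background of 27.2%. The S2 peak was at least 1.5 times as wide in 110 pairs (7.38%), against 11.7%. At a factor of 2 the wider peak was in S3 in 179 pairs (12.0%, background 17.0%) and in S2 in 57 (3.83%, background 6.93%). At a factor of 3 it was in S3 in 81 pairs (5.44%, background 8.69%) and in S2 in 17 (1.14%, background 3.14%). The excess of wider S3 peaks at each of these factors was present among all overlapping combinations too. Of those 1876 combinations, 1490 are the pairs. At a factor of 1.5 the wider peak was in S3 in 511 combinations, 325 of them pairs, and in S2 in 219, 110 of them pairs. At a factor of 2 the S3 count was 319, 179 of them pairs, and the S2 count 130, 57 of them pairs. At a factor of 3 the S3 count was 163, 81 of them pairs, and the S2 count 59, 17 of them pairs. The excess thus existed outside the pairs as well, where a peak with several partners is counted once for each.

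**Figure D1:**
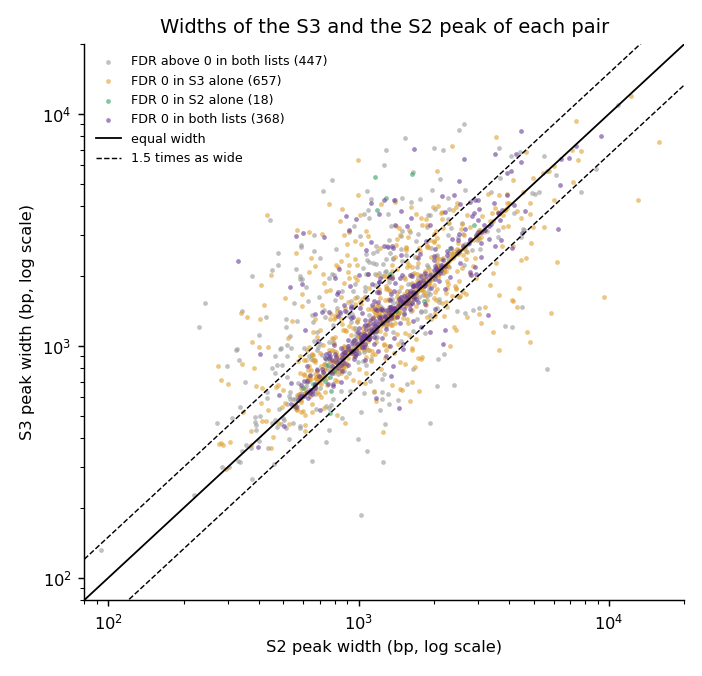
Each point is 1 of the 1490 pairs, with the S3 width on the vertical and the S2 width on the horizontal log axis (bp), coloured by whether the authors listed a false discovery rate (FDR) of 0 in both lists, in 1 list or in neither. Points gather along the solid line of equal width; 325 pairs lie on or above the upper dashed line and 110 on or below the lower one, which mark 1.5 times the width of the partner.

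Close borders were counted for both borders of a pair and for at least 1 of them. The second count includes the first and so cannot be smaller. Both borders of a pair lay within 100 bp of each other in 542 pairs (36.4%, 33.9 to 38.9%). The background over all overlapping combinations was 29.6%, but 542 of the 555 combinations it counts are the pairs themselves. It is thus no independent comparison. At least 1 border lay within 100 bp in 1228 pairs (82.4%, 80.4 to 84.3%). Within 50 bp, both borders matched in 287 pairs and at least 1 in 995. Within 10 bp, both matched in 29 pairs and at least 1 in 354. An identical position was drawn for a single border in 20 pairs, 16 times on the left and 4 times on the right, and no pair had both borders identical. In 262 pairs (17.6%) neither border lay within 100 bp.

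S3 peaks reached slightly farther than their S2 partners on both sides. The S3 border lay farther out by a median of 17 bp on the left (12 to 22 bp) and 25 bp on the right (20 to 30 bp). S3 reached farther in 900 pairs (60.4%) on the left and in 937 (62.9%) on the right. The share over all overlapping combinations was not computed for this reach. The size of the border difference, whichever peak reached farther, had a median of 63 bp on the left and 70 bp on the right, with upper quartiles of 311.5 and 301.75 bp. S3 reached farther by more than 500 bp at 178 left and 201 right borders, and S2 reached farther by more than 500 bp at 92 left and 83 right borders. The reach on one side told little of the reach on the other: across the 1490 pairs the left and right values had a Spearman rho of 0.08, a description over pairs that all come from the same pair of libraries.

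**Figure D2:**
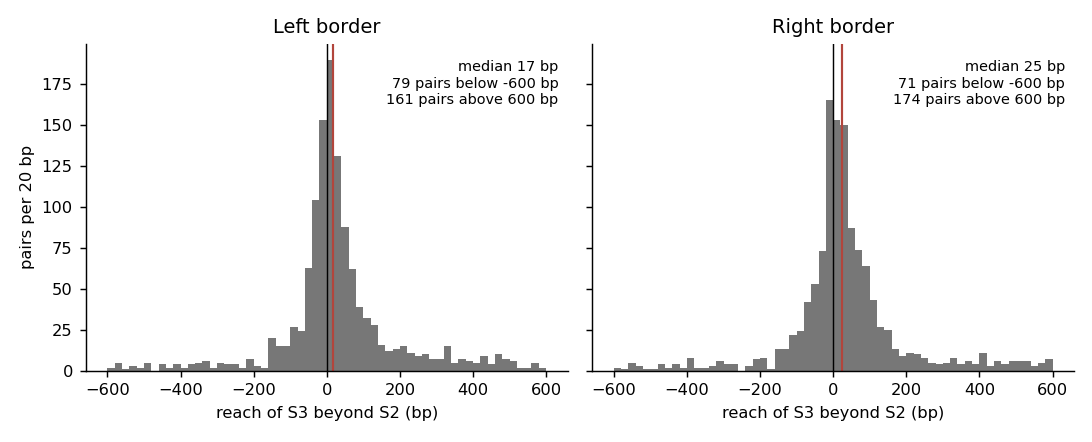
Histograms of the reach of the S3 border beyond the S2 border at the left and the right border of 1490 pairs, in bins of 20 bp; positive values mean that S3 reached farther, the black line marks 0 and the red line the median (17 and 25 bp). Most borders sit in a narrow peak around 0; 161 left and 174 right borders lie above 600 bp, and 79 left and 71 right borders lie below -600 bp, outside the axis.

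The centres of paired peaks were close and showed little direction. They lay a median of 87.5 bp apart (78.5 to 106.5), and 10% of pairs had centres more than 771.45 bp apart. The S3 centre lay to the right of the S2 centre in 776 pairs (52.1%, 49.5 to 54.6%) and at the same position in 6. Pairs fell into nested and staggered forms. The S2 peak lay inside the S3 peak in 608 pairs (40.8%, background 40.6%), and the S3 peak lay inside the S2 peak in 251 (16.8%). The peaks were staggered in the remaining pairs, with S3 to the right in 329 and to the left in 302. The shared sequence was a median of 91.6% of the S3 peak and 99.0% of the S2 peak, and 1223 pairs (82.1%) overlapped by at least 50% of each peak.

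Where the widths differed strongly, the extra length usually lay on one side. The larger and the smaller of the left and right reach differ by definition, so their medians alone do not show this. In the 325 pairs with an S3 peak at least 1.5 times as wide, the larger reach of S3 had a median of 1128 bp (1017 to 1214) and the smaller reach a median of 38 bp (26 to 57). One border stayed within 100 bp in 206 of them (63.4%, 57.9 to 68.6%), and S3 extended by more than 100 bp on both sides in 99 (30.5%). A close border was no mark of unequal pairs, since 82.4% of all 1490 pairs had at least 1 border within 100 bp. The larger reach was on the right in 169 of the 325 pairs (52.0%, 46.4 to 57.5%). The 110 pairs with an S2 peak at least 1.5 times as wide had a similar form: the larger reach of S2 had a median of 964 bp and the smaller 10.5 bp, and in 76 pairs (69.1%, 59.6 to 77.6%) one border stayed within 100 bp. The larger reach of S2 was on the right in 53 of them.

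The pairs with the highest S3/S2 width ratios show this form. On 2L, the S3 peak at 6479242 to 6482896 measured 3655 bp and the S2 peak at 6479209 to 6479638 measured 430 bp, a ratio of 8.5. Their left borders were 33 bp apart, and S3 reached 3258 bp farther on the right. On 3R, the S3 peak at 6213919 to 6217404 measured 3486 bp and the S2 peak at 6213912 to 6214351 measured 440 bp, with left borders 7 bp apart. On 2R the shared border was the right one: the S3 peak at 14558883 to 14561197 ended 4 bp beyond the S2 peak at 14560864 to 14561193, and both were listed at an FDR of 0. The other two, an S3 peak of 5182 bp against an S2 peak of 779 bp on 3L (ratio 6.65) and an S3 peak of 4629 bp against an S2 peak of 721 bp on 3R (ratio 6.42), again had left borders 47 and 39 bp apart. All 5 thus had a border in common within 100 bp.

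At the other end of the range the S3 peak lay inside a wider S2 peak. On X, the S3 peak at 3055686 to 3057306 measured 1621 bp and the S2 peak at 3055631 to 3065167 measured 9537 bp. Their left borders were 55 bp apart and their centres 3903 bp, the largest distance between centres of any pair. On 3R, the S3 peak at 16782093 to 16783131 measured 1039 bp and the S2 peak at 16778297 to 16783136 measured 4840 bp, with right borders 5 bp apart. On X, an S3 peak of 1380 bp at 5894529 to 5895908 faced an S2 peak of 5835 bp at 5890184 to 5896018. The right borders of this pair were 110 bp apart. The lowest ratio belonged to a 3R pair without a common border: the S3 peak at 19614173 to 19614962 (790 bp) lay 1455 bp inside the left and 3412 bp inside the right border of the S2 peak at 19612718 to 19618374 (5657 bp). A narrow X pair, 187 bp in S3 and 1019 bp in S2, also had both S2 borders farther out, by 499 and 333 bp.

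**Figure D3:**
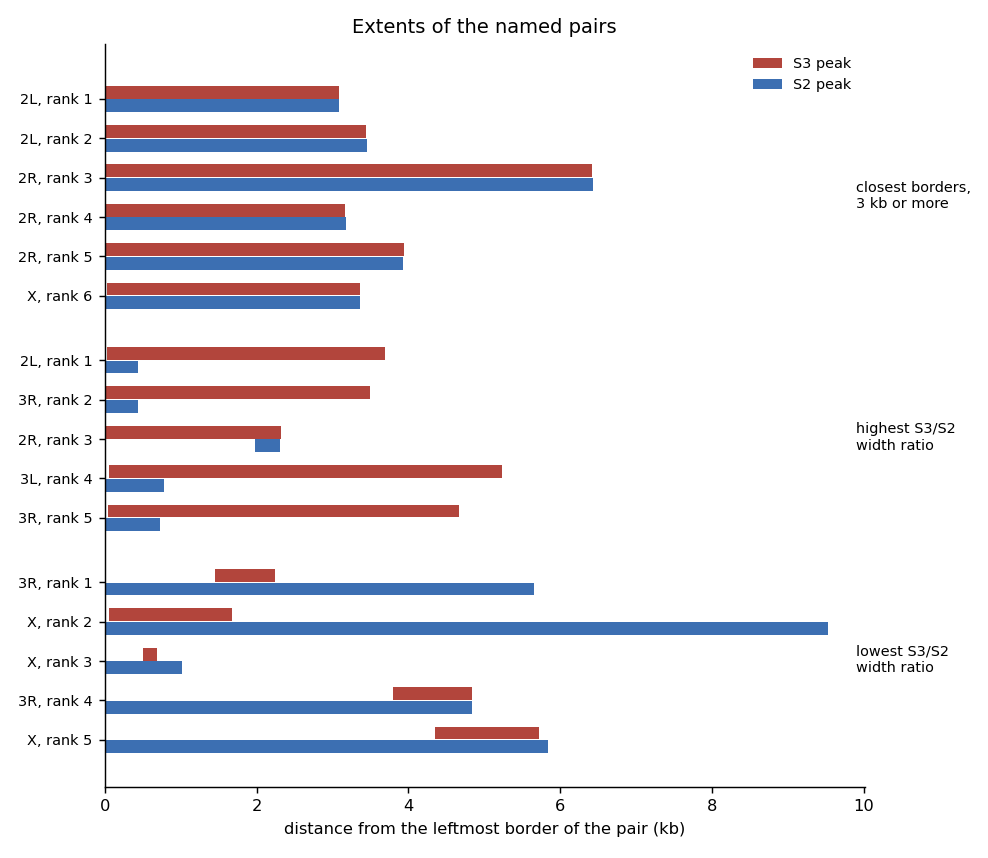
Horizontal extents of the S3 peak (red, upper bar) and the S2 peak (blue, lower bar) of 16 pairs, in kb from the leftmost border of each pair, for the 6 pairs of 3 kb or more with the closest borders and the 5 pairs each with the highest and the lowest S3/S2 width ratio. The bars of the first group end together; in the second group 1 border is shared and S3 runs on, by 3258 bp in the top pair, and in the third group S2 runs on, on one or both sides.

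Some outlines were almost the same in both lists. The smallest summed border difference, 3 bp, was shared by 5 pairs, on 2L, 3L, 3R, X and 3L. The widest of them, on 2L, ran from 20416990 to 20417991 in S3 (1002 bp) and from 20416991 to 20417989 in S2 (999 bp). The next pair, on X, differed by 4 bp in all and measured 1914 bp in S3 and 1910 bp in S2. Such agreement was rarer among broad peaks: of 150 pairs with a mean width of 3 kb or more, 24 (16.0%, 10.5 to 22.9%) had both borders within 100 bp. The closest of these, on 2L, ran from 16298586 to 16301672 in S3 (3087 bp) and from 16298591 to 16301674 in S2 (3084 bp). It was listed at an FDR of 2.27% in S3 and 1.27% in S2, so that nearly identical outlines were not restricted to peaks of the lowest FDR. Another 2L pair of 3445 bp in S3 and 3447 bp in S2 had borders 5 and 7 bp apart. On 2R, the pair at 3690992 to 3694917 in S3 and 3690980 to 3694905 in S2 had a width of 3926 bp in both lists, displaced by 12 bp. A 2R pair of 3155 bp in S3 and 3173 bp in S2 and an X pair of 3336 bp in S3 and 3362 bp in S2 completed the set of 6 with the broad 2R pair of 6414 bp in S3 and 6430 bp in S2.

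The widest pairs of the arms differed in form. On 3L the S3 peak at 1793985 to 1804899 (10915 bp) enclosed the S2 peak at 1794029 to 1804847 (10819 bp), with borders 44 and 52 bp apart. On 2L the widths were likewise close, 11985 bp in S3 at 2157941 to 2169925 and 12224 bp in S2 at 2160764 to 2172987, but the peaks were staggered by 2823 bp on the left and 3062 bp on the right. On 3R the S3 peak measured 8012 bp (11111447 to 11119458) and the S2 peak 9294 bp (11111384 to 11120677), with left borders 63 bp apart. On 2R the S3 peak measured 7585 bp (20824854 to 20832438), inside an S2 peak of 15756 bp (20823909 to 20839664). On X the S3 peak measured 9052 bp (2434956 to 2444007) and reached 3203 and 3227 bp beyond an S2 peak of 2622 bp (2438159 to 2440780), so that the centres were 12 bp apart. On chromosome 4 the S3 peak measured 3028 bp and the S2 peak 2005 bp.

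The broader the pair, the larger was the difference of its borders in bp, while the width ratio stayed level. Pairs were divided into 5 classes of nearly equal size by the mean of their S3 and S2 width. Part of the rise in bp was fixed in advance. The summed border difference of overlapping peaks cannot exceed their summed widths, and a long reach itself raises the mean width. The median of the summed left and right border differences was 104 bp in the narrowest class (93 to 130), 163 bp, 238 bp and 413.5 bp in the next 3, and 1282 bp in the widest (910 to 1482). Both borders were within 100 bp in 58.5% of the narrowest pairs (52.7 to 64.2%) and in 15.2% of the widest (11.3 to 19.7%). Relative to size the change was smaller: the shared sequence was a median of 84.5% of the joint extent in the narrowest class and between 80.2 and 85.1% in the next 3, and 69.1% in the widest. The median width ratio S3/S2 lay between 1.04 and 1.08 in all 5 classes.

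The FDR was not used to form pairs, but both lists end at a limit that the authors set on it. A counterpart above that limit is absent from its list, and the peak facing it is then without a partner. The FDR is thus no independent view of pairing, and how far the limit shapes the shares below was not tested. The FDR is the authors' value for each peak and depends on the background of the library. An S3 value therefore cannot be set against an S2 value. An FDR of 0 was listed for both peaks in 368 pairs (24.7%), for the S3 peak alone in 657 (44.1%), for the S2 peak alone in 18 (1.21%), and for neither in 447 (30%). Of paired S3 peaks 1025 (68.8%, 66.4 to 71.1%) were at 0, against 193 of 262 S3 peaks with several partners (73.7%, 67.9 to 78.9%) and 313 of 1407 without a partner (22.2%). Of paired S2 peaks 386 (25.9%, 23.7 to 28.2%) were at 0, against 90 of 296 with several partners (30.4%, 25.2 to 35.99%) and 9 of 298 without a partner (3.02%).

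Pairs at an FDR of 0 in both lists had closer borders than pairs above 0 in both. The summed border difference had a median of 161 bp (143 to 187) in pairs with both peaks at 0 and 371 bp (291 to 457) in pairs with neither peak at 0. The shared sequence was a median of 87.1% of the joint extent (85.6 to 89.97%) where both were at 0 and 70.2% (64.9 to 76.5%) where neither was. The pairs at 0 had median widths of 1509 bp in S3 (1428 to 1624) and 1324.5 bp in S2 (1208 to 1379). For the pairs above 0 the median widths were 1365 bp in S3 (1260 to 1455) and 1094 bp in S2 (1035 to 1185). The S3 intervals overlapped and the S2 intervals did not. Within the narrowest width class the median of the summed border difference was 79.5 bp (49 to 112) for pairs at 0 and 161 bp (107 to 216) for pairs above 0. Within the widest it was 832 bp (529 to 1255) for pairs at 0 and 1831.5 bp (1390 to 2562) for pairs above 0. In each of the 5 width classes the median was lower for pairs at 0, though the intervals overlapped in the 3 narrowest. Another peak of either list lay within 500 bp of 42.1% of pairs at 0 (37.0 to 47.3%) and of 26.0% of pairs above 0 (21.9 to 30.3%). With a peak within 500 bp, the medians were 112 bp (84 to 151) for pairs at 0 and 243 bp (143 to 366) for pairs above 0, with intervals that overlapped. Without one, they were 198 bp (164 to 309) for pairs at 0 and 432 bp (335 to 539) for pairs above 0.

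**Figure D4:**
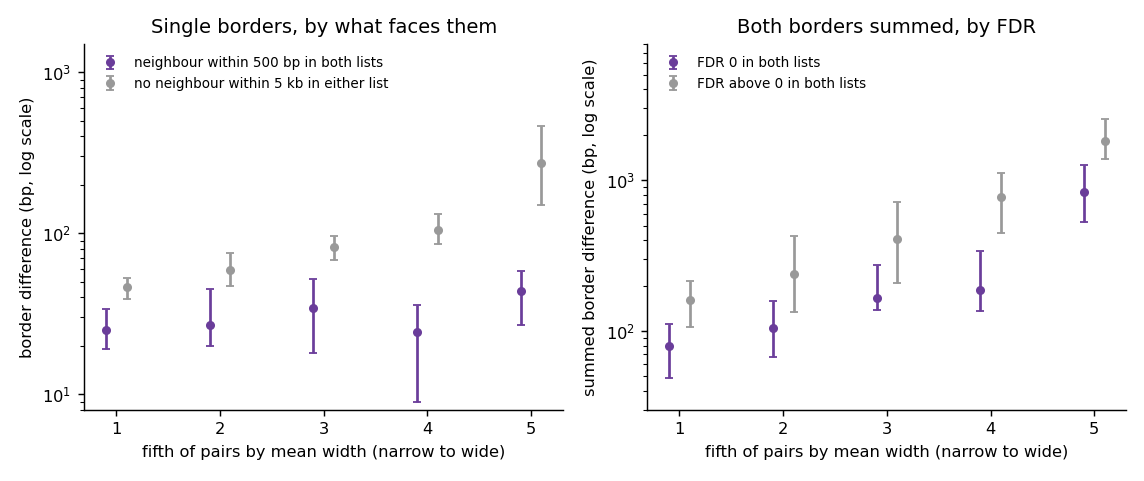
Medians (points) with 95% intervals from binomial ranks (bars), on log axes in bp, over 5 classes of pairs from narrow to wide. Left, the difference of single borders that face a neighbour within 500 bp in both lists (purple), which the gap itself limits, stays between 24.5 and 44 bp, while that of borders with no neighbour within 5 kb in either list (grey) increases from 46.5 bp in the narrowest to 275 bp in the widest class; right, the summed difference of both borders is lower in every class for pairs at an FDR of 0 in both lists (purple) than for pairs above 0 in both (grey).

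Each of the 2980 borders of a pair was classed by the gap to the next peak of the same list on that side. In 311 cases the gap was under 500 bp in both lists, and the border difference had a median of 30 bp (25 to 34). In 1858 cases it was at least 5 kb in both, and the median was 82 bp (75 to 91). These values cannot be set against each other as a measure of agreement. A close neighbour limits the difference by construction to the gap itself, because a longer reach would meet the neighbour and end the pair. A close neighbour in S3 alone was found at 181 borders, where S3 lay farther out by a median of 58 bp. A close neighbour in S2 alone was found at 49 borders, with a median reach of S3 of -6 bp. The direction of both was favoured in advance, since a peak that reaches farther shortens its own gap, and the neighbour caps the reach of the other list.

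Some domains were divided alike in both lines. Neighbouring pairs followed each other with a gap under 500 bp in both lists in 140 cases, which formed 125 regions with 265 pairs. In these gaps the S3 list left a median of 119 bp (87 to 140) and the S2 list 159.5 bp (147 to 184) without a peak, and the S2 gap was the wider in 93 of 140 (66.4%, 58.0 to 74.2%). The midpoints of the S3 and the S2 gap lay a median of 19.5 bp apart (16.5 to 26) and at most 171.5 bp. They were within 50 bp of each other in 114 of 140 gaps (81.4%, 74.0 to 87.5%). The rule requires that the gaps of both lists overlap, since otherwise a peak would have a second partner, so the distance between midpoints was limited in advance; domains that the lists divide at different places are not among the pairs.

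The longest regions of this kind held 4 pairs each. On 3L, from 10729784 to 10733937, the S3 peaks measured 1218, 543, 882 and 935 bp and the S2 peaks 1156, 563, 858 and 879 bp, all at an FDR of 0. The gaps between them were 339, 155 and 78 bp in S3 and 359, 147 and 151 bp in S2, and no border differed by more than 60 bp. On X, from 9577962 to 9581331, the S3 peaks measured 733, 615, 617 and 1066 bp and the S2 peaks 674, 569, 692 and 1097 bp, with borders at most 69 bp apart. The first gap of this region was 14 bp in S3 and 62 bp in S2. On 3R, from 14272729 to 14276508, the 4 S3 peaks were all wider than their S2 partners, and the largest border difference was 101 bp. The gap between the second and the third peak there measured 8 bp in S3 and 107 bp in S2. These regions show the same division into 4 peaks in both lists over 3370 to 4154 bp.

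Pairs were present on every arm in the lists, most densely on X. X held 344 pairs, or 15.4 per Mb of the span covered by peaks, against 11.9 per Mb on 2L, 2R, 3L and 3R together. By arm there were 256 pairs on 2L, 245 on 2R, 301 on 3L and 338 on 3R, at 11.6 to 12.3 per Mb, and 6 on chromosome 4, at 4.58 per Mb. The share of an arm's peaks that were in pairs varied little in S2, between 69.5% on 3L and 74.3% on 3R among the large arms, with 70.9% on X (66.7 to 74.9%). In S3 it was 43.5% on X (40.1 to 47.1%) and 48.4% on the large autosomal arms together (46.4 to 50.4%), of which 2L had the highest, 51.7%. X thus had the highest density of pairs of any arm without the highest share of its peaks in pairs. It also had the most peaks in both lists, paired or not, with 790 in S3 and 485 in S2 over 22.4 Mb. The next arm, 3R, had 719 in S3 and 455 in S2 over 27.8 Mb. The high density on X was thus not particular to the pairs.

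X pairs were narrower in both lists. Their median width was 1035.5 bp in S3 (958 to 1142) and 978 bp in S2 (899 to 1066), against 1569 bp in S3 (1497 to 1635) and 1310 bp in S2 (1262 to 1354) on the large autosomal arms. X held 126 of the 299 pairs in the narrowest width class (42.1%) and 31 of the 297 in the widest (10.4%). The S3 peak was the wider in 61.0% of X pairs (55.7 to 66.2%) and in 67.5% of the autosomal pairs (64.7 to 70.2%), and the intervals overlapped. Among the large arms, the broadest paired peaks were those of 2R, with a median of 1857 bp in S3 and 1458 bp in S2. Centres lay a median of 81 bp apart on X and 91.75 bp apart on the autosomal arms, and both borders were within 100 bp in 36.9% of X pairs (31.8 to 42.3%) and 36.4% of autosomal pairs (33.6 to 39.3%). All 6 pairs of chromosome 4 had at least 1 border difference above 100 bp, too few pairs for a comparison.

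**Figure D5:**
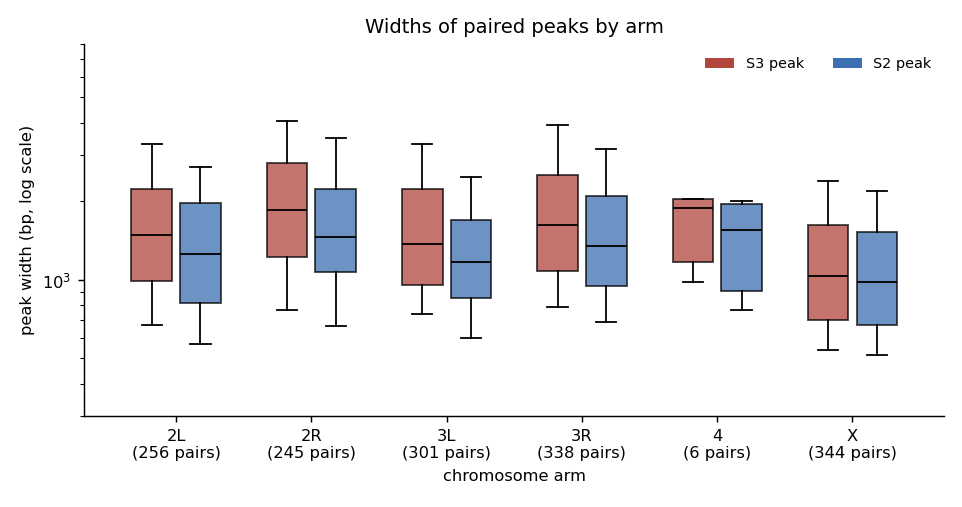
Widths (bp, log axis) of the S3 (red) and S2 (blue) peaks of the pairs on each chromosome arm; boxes span the quartiles, the line is the median and whiskers reach the 10th and 90th percentiles. X has the lowest medians, 1035.5 bp in S3 and 978 bp in S2, and 2R the highest of the large arms, 1857 bp in S3 and 1458 bp in S2; chromosome 4 has 6 pairs only.

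Pairs were spread unevenly along the arms. The gap between neighbouring pairs had a median of 33.0 kb (29.6 to 35.7 kb), a lower quartile of 5.79 kb and an upper quartile of 102.7 kb. It was under 500 bp in 170 of 1484 cases (11.5%) and under 5 kb in 347 (23.4%). The median was 25.9 kb on X and between 31.5 and 41.7 kb on the large autosomal arms. The longest stretch between neighbouring pairs, 1.06 Mb, was on 2L. The nearest other peak of either list lay within 500 bp of 499 pairs (33.5%) and at 20 kb or more from 243 (16.3%). Of the close group, 46.7% had both borders within 100 bp (42.2 to 51.2%), and 25.5% of the isolated one (20.2 to 31.5%); a near neighbour of the same list limits a border difference here too. The pairs at 20 kb or more were wider, with medians of 1606 bp in S3 and 1340 bp in S2, than those within 500 bp, with 1339 bp in S3 and 1080 bp in S2.

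Of 1197 windows of 100 kb, 499 held no pair, 317 held a single pair, and 57 held 5 or more, which together took in 353 pairs. The fullest window, at 17.9 to 18 Mb on 3L, held 10 pairs among the 13 S3 peaks and 12 S2 peaks, paired or not, whose midpoints lay in it. A further 6 windows held 9 pairs each. Among them, the window at 18.7 to 18.8 Mb on 3L had 9 peaks in each list, and that at 8.8 to 8.9 Mb on 2R had 9 S3 and 10 S2 peaks. Uninterrupted runs, in which no unpaired peak of either list came between pairs, had 10 pairs at most. That run lay on 3L from 18749849 to 18808078, over 58.2 kb. The S3 peak was the wider in 9 of its 10 pairs, and the median widths were 1322 bp in S3 and 1074 bp in S2. There were 789 runs in all, of which 431 were a single pair and 39 had 5 or more pairs.

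At the limit of the rule, few pairs rested on a small overlap in bp. The smallest was 53 bp, on X, between an S3 peak of 831 bp at 18813603 to 18814433 and an S2 peak of 736 bp at 18812920 to 18813655, whose centres were 730.5 bp apart. The next 4 overlapped by 83 to 205 bp, and in each of these the narrower of the peaks measured 93 to 318 bp. Relative to size, 5% of pairs shared less than 28.4% of their joint extent, and the lowest share was 3.50%. Just outside the rule, the unpartnered S3 peak nearest to an S2 peak lay on 3R at 12724017 to 12725170, with 7 bp between it and the S2 peak. The nearest 5 unpartnered S3 peaks had gaps of 7 to 12 bp and the nearest 5 unpartnered S2 peaks gaps of 1 to 27 bp. In all, 52 of the 1407 S3 peaks and 17 of the 298 S2 peaks without a partner were within 100 bp of the other list.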

How the data were processed

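Among 6 samples, 3 are AGO2 ChIP and 3 are input; the S3 and S2 libraries of antibody 9D6 are used here and the rest were not analysed here. Groups come from the sample titles. Build dm3, MACS 1.3.7.1 and Bowtie 0.12.5 appear in the submitters' processing notes, with no roles stated. The authors deposited 1 list of peaks per library, not pooled, with each start and end in bp and a last column taken as the FDR in percent, at a limit of 5% per the file headers. Which input was used, the read filters and the depth are not given in those sources. Called widths and divisions can change with depth and background; this was not tested. Peaks were paired and measured with Python 3.11.15, numpy 2.4.6, scipy 1.17.1 and pandas 2.3.3, and plotted with matplotlib 3.10.9; the pairing was checked on simulated lists. The span of an arm is the largest peak end on it.

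The members and the classes used to describe them were chosen with earlier results of these data known. Named pairs followed a rule: the widest of each arm, the 6 with the closest borders (also among pairs of 3 kb or more), the 5 at each end of the width ratio, the 5 with the most distant centres, the densest windows and runs, and the pairs and unpartnered peaks at the limit of the rule. The classes by FDR, width, neighbours and division, and the regions of 4 pairs, were chosen after the values were seen. Alternatives covered the overlap, joining, FDR, width and isolation of peaks.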

Additional observations from a re-analysis of the deposited data

How the results depend on the processing

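For 8 results under 6 alternatives, 48 values were recomputed. Of these, 33 stayed within the interval of the reported value (for the number of pairs, within a factor of 1.5) and 15 moved. A direction was defined only for the median width ratio and the share of pairs with the wider peak in S3. Neither changed direction under any alternative. Requiring an overlap of 100 bp or peaks of at least 500 bp moved none of the 8 results. Requiring 50% of each peak, which removes unequal pairs by construction, gave a median width ratio S3/S2 of 1.04, a median centre distance of 67.25 bp, both borders within 100 bp in 41.2% of pairs and the S2 peak inside the S3 peak in 37.7%. Joining peaks less than 500 bp apart, which removes close borders, gave a ratio of 1.07, a centre distance of 164 bp, both borders within 100 bp in 27.8% and a median gap between pairs of 40704 bp. An FDR limit of 1% left 1280 pairs, with a gap of 37040 bp. The 595 pairs with no other peak within 5 kb had the wider peak in S3 in 62.5%, a centre distance of 151 bp, both borders within 100 bp in 27.7%, an X share of 19.8% and a gap of 124021 bp. No paired analysis was possible because each line has 1 library. Read depth, which is not given, limits every comparison of widths.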
